A study of Mus musculus with 15 samples.

Results

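Transcripts of 9 genes that mark granulocytes and other myeloid cells were read in NIH 3T3 cells, a mouse fibroblast line, after expression of 1 of 4 human C/EBP proteins. The genes were S100a8, S100a9, Lyz2, Camp, Ltf, Mpo, Cybb, Cd14 and Ngp. They are 9 of the 8251 genes that the array reads under a single symbol. Every probe set that the platform annotation assigns to 1 of these symbols and to no other gene was taken, which gave 11 of the 12488 probe sets on the array, a pair each for Lyz2 and Mpo and a single one for every other gene. Total RNA was hybridised to 15 Affymetrix MG_74Av2 arrays, 3 in each of 5 groups. In 4 groups the cells carried a zinc-inducible plasmid (pMT) with the human cDNA of a single C/EBP protein (α, β, δ or ε), and in the last group they carried the empty plasmid, called vector. All 5 groups were selected with G418 and received zinc sulphate for 16 h, so vector cells carry the plasmid backbone and the metal treatment too. The labels describe the transfectants as polyclonal and the cultures as triplicate clones. A p-value here therefore reflects how much cultures within a group vary, with the spread pooled over the 5 groups of 3. It is not known here if each culture was transfected on its own. All 4 comparisons with vector use the same 3 vector arrays.

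C/EBP proteins are transcription factors with a basic region and a leucine zipper. In the bone marrow C/EBPα acts early in the granulocyte lineage, and C/EBPε acts late, when the genes of the secondary granules are switched on. Granulocytes kill microbes with stored granule proteins, with an oxidase that makes superoxide, and with the calcium-binding proteins S100A8 and S100A9, which pair to form calprotectin. Fibroblasts are not known for making most of these products.

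The sequences before the start of the genes called higher in C/EBPα cells are shown because C/EBP proteins bind DNA directly, and that of Ltf is shown because it holds a motif match although its transcript was not called. They are the 250 bases before the annotated start from RefSeq (GRCm38.p6), written 5′ to 3′ on the strand of the gene. Capitals mark matches to TTGCNNAA on either strand, a relaxed form of the palindromic C/EBP site TTGCGCAA, which it contains.
S100a8, chr3:90668821-90669070, plus strand: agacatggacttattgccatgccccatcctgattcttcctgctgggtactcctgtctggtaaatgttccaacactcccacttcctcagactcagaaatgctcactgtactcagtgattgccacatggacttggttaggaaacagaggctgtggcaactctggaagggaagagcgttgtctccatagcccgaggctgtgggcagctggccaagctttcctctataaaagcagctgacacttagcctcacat
S100a9, chr3:90695722-90695971, minus strand: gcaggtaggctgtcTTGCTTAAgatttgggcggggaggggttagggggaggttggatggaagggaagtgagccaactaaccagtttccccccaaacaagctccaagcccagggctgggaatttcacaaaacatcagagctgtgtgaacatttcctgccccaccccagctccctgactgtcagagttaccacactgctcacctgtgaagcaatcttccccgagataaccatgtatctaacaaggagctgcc
Lyz2, chr10:117282273-117282522, minus strand: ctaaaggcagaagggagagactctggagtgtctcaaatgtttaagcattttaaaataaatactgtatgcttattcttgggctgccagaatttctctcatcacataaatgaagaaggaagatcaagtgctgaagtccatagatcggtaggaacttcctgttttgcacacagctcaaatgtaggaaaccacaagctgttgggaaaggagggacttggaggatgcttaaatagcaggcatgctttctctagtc
Camp, chr9:109849457-109849706, minus strand: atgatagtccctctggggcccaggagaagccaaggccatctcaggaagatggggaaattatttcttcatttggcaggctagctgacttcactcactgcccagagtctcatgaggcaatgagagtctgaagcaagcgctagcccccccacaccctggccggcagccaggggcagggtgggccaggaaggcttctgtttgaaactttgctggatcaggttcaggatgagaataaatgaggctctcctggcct
Ngp, chr9:110419558-110419807, plus strand: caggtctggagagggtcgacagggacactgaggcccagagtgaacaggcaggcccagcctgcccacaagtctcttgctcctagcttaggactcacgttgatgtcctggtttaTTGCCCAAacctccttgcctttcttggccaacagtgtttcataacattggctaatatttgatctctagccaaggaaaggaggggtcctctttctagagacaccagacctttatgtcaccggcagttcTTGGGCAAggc
Ltf, chr9:111019042-111019291, plus strand: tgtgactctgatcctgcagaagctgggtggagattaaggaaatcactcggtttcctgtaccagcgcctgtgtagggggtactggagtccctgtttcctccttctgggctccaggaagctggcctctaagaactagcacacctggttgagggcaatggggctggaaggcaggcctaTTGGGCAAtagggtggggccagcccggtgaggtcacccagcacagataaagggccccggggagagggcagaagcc
Of the 9 genes, 8 had a promoter entry, Cd14 being the other one, and 3 of the 8 held TTGCNNAA in the 250 bases. S100a9 held TTGCTTAA from 236 to 229 bases before the start, Ngp held TTGCCCAA from 138 to 131 and TTGGGCAA from 11 to 4, and Ltf held TTGGGCAA from 75 to 68. Among all 32851 promoters in the table, 9.56% held TTGCNNAA and 0.164% held TTGCGCAA. S100a8, Lyz2, Camp, Mpo and Cybb held neither in this window, and TTGCGCAA was in none of the 8. A match is a string of letters and was not tested as a binding site.

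The deposited intensities were scaled to a common median, values under the 20th percentile of all arrays (189.652 units) were raised to that floor, and log2 differences were tested with limma over 11661 probe sets. Levels below are scaled units before the floor, given for arrays 1, 2 and 3, and errors beside means are SD with n = 3. A probe set was called near background when no group mean reached the median of all probe sets (1092.06 units). By that rule 7 of the 11 probe sets were near background, and so were all probe sets of 5 genes, S100a9, Ltf, Mpo, Cybb and Ngp. The other 4 probe sets, of S100a8, Lyz2 (100611_at), Camp and Cd14, had at least 1 group mean above the median. The second probe sets of Lyz2 (162309_at) and Mpo (100414_s_at) were at the floor on all 15 arrays and could not be tested, which left 9 probe sets, 1 for each gene, in the fit.

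For scale, 39 genes restricted to tissues such as retina, testis, pituitary and skin were read on the same arrays. Their group means ran from 84.1 to 3822 units in vector cells with a median of 495.2, and 8 of the 39 lay above the array median. Probe sets differ in how brightly they read a transcript, so a place within this range describes a probe set and does not show that a gene is silent. Cd14 in vector cells (2959 units) was brighter than 37 of these 39 genes, and S100a8, Ltf, Mpo (100415_at) and Cybb were each brighter than 25. Ngp (124.5 units) and S100a9 (159.1 units) were brighter than 6 and 9 of them. In C/EBPα cells S100a8 was brighter than all 39 and Lyz2 (100611_at) than 37, while Ngp was brighter than 20.

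**Figure D1:**
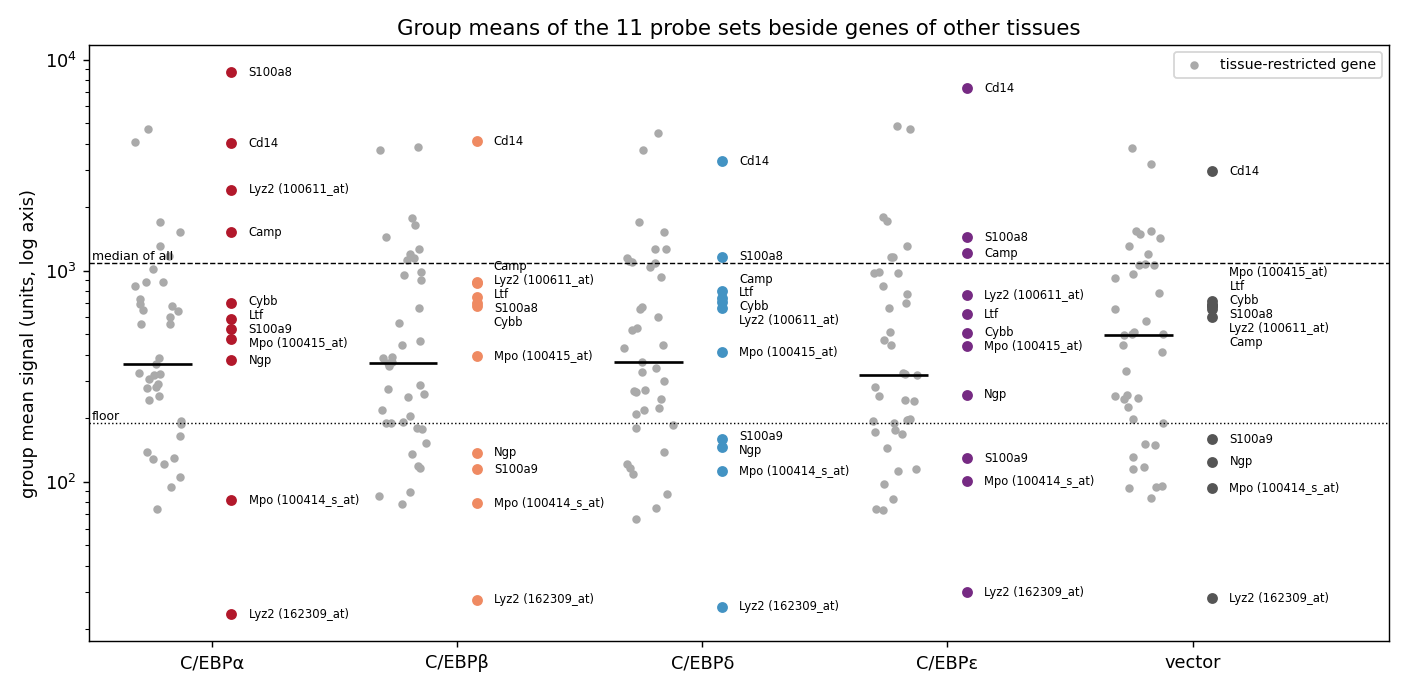
Group means of the 11 probe sets (coloured points, scaled units on a log axis) beside those of 39 tissue-restricted genes (grey points, bar at their median) in C/EBPα, C/EBPβ, C/EBPδ, C/EBPε and vector cells. The dashed line is the median of all probe sets (1092.06 units) and the dotted line the floor (189.652 units). S100a8 stands above all grey points in C/EBPα cells, and Cd14 does so in C/EBPβ and C/EBPε cells.

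In C/EBPα cells 5 of the 9 genes were called higher than in vector cells at an adjusted p under 0.05, S100a8, Lyz2, Camp, S100a9 and Ngp, and none was called lower. Over the whole array 4.09% of probe sets were called higher and 8.13% in either direction. The median log2 difference of the 9 was 0.97, beside 0 over all probe sets. C/EBPε cells had 2 genes called higher, Cd14 and S100a8, where 5.24% of all probe sets were higher. C/EBPβ and C/EBPδ cells had none by limma's test, where 4.78% and 0.18% of all probe sets were called in either direction. In each of these groups 1 gene had an unadjusted p under 0.05, but the share of all probe sets under that level was not counted. In C/EBPε cells 9.31% of all probe sets were called in either direction. The arrays of 5 genes in C/EBPα, 3 in C/EBPβ, 2 in C/EBPδ and 4 in C/EBPε cells did not overlap those of vector, beside 21.7%, 21.4%, 11.4% and 23.8% of all probe sets. The genes were picked with earlier results of these arrays known, so the counts describe them and carry no test of the list. In bulk RNA, more cells expressing a gene and more RNA per cell cannot be told apart.

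**Figure D2:**
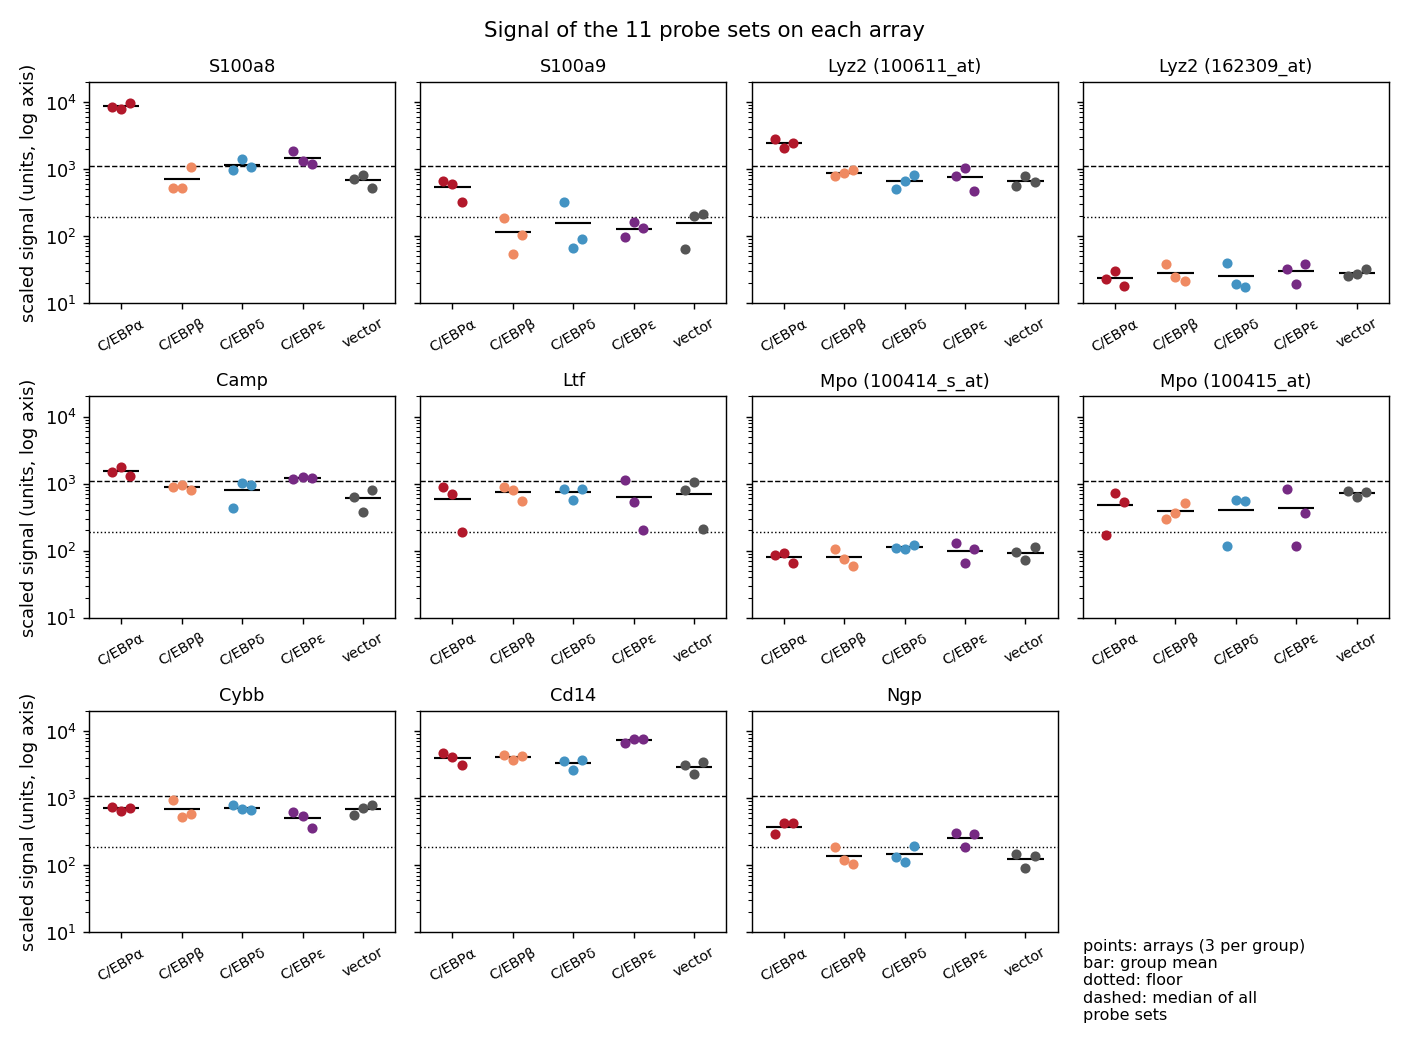
Scaled signal (units, log axis) of each of the 11 probe sets on every array, 3 points per group with a bar at the group mean, for C/EBPα, C/EBPβ, C/EBPδ, C/EBPε and vector cells from left to right. The dotted line is the floor and the dashed line the median of all probe sets. The C/EBPα points of S100a8 and Lyz2 (100611_at) lie above every other point of their panels, and the C/EBPε points of Cd14 do so in theirs.

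S100a8 (chromosome 3, 90669071 to 90670034, GRCm38.p6) encodes a subunit of calprotectin, which binds calcium and zinc and is abundant in the neutrophil cytosol. It read 8457, 7961 and 9759 units in C/EBPα cells, 526, 528 and 1061 in C/EBPβ cells, 974.8, 1433 and 1087 in C/EBPδ cells and 1828, 1324 and 1185 in C/EBPε cells, against 714, 803 and 524 in vector cells. All C/EBPα arrays lay far above the other 12, and the C/EBPε and C/EBPδ arrays also lay above all vector arrays, while the C/EBPβ arrays overlapped them. The mean was 8726 ± 929 units in C/EBPα cells and 680.3 ± 142 in vector cells, a 13-fold difference (log2 3.70, SE 0.29, limma adjusted p = 2.71e-06). By log2 difference it was rank 7 of the 477 probe sets called higher in C/EBPα cells.

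In C/EBPε cells S100a8 averaged 1445 ± 338 units, 2.12-fold above vector (log2 1.08, SE 0.29, limma adjusted p = 0.0313). This call was lost when vector array 1 or 3 or C/EBPε array 1 or 2 was left out (adjusted p = 0.0657, 0.123, 0.104 and 0.0626). Array weights (limma adjusted p = 0.0501), leaving out the arrays numbered 1 (0.222) and a fit of C/EBPε and vector arrays alone (0.112) lost it too. The C/EBPδ mean of 1165 ± 239 units was 0.78 log2 above vector and was not called (95% interval 0.16 to 1.40, limma adjusted p = 0.615). The C/EBPβ difference was -0.01 (interval -0.63 to 0.61). S100a8 was higher in C/EBPα cells than in each of the other C/EBP groups, by log2 3.71 against C/EBPβ, 2.92 against C/EBPδ and 2.61 against C/EBPε (limma adjusted p = 8.56e-06, 4.2e-05 and 3.3e-04). In the order of means, C/EBPα, C/EBPε, C/EBPδ, C/EBPβ and vector, the first step was the only one between neighbours that was called.

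S100a9 (chromosome 3, 90692630 to 90695721), whose product is the partner of S100A8 in calprotectin, was near background. It read 667, 600 and 326 units in C/EBPα cells, 187, 55 and 103 in C/EBPβ cells, 320, 67 and 90 in C/EBPδ cells and 96, 159 and 133 in C/EBPε cells, against 65, 198 and 215 in vector cells. The 3 C/EBPα arrays were the highest, and 9 of the other 12 arrays were at the floor. The log2 difference between C/EBPα and vector was 1.34 (SE 0.25, limma adjusted p = 0.00387), 2.53-fold with 1 vector array at the floor. S100a9 was at least 2.67-fold higher in C/EBPα cells than in C/EBPβ or C/EBPε cells, all of whose arrays were at the floor, and it was also called higher than in C/EBPδ cells (log2 1.17, limma adjusted p = 0.0155). The call against C/EBPδ was lost without C/EBPα array 1 or 2 or C/EBPδ array 2 or 3 (adjusted p = 0.053, 0.0658, 0.0769 and 0.0786), and that against C/EBPε without C/EBPα array 1 or 2 or any 1 of the C/EBPε arrays (0.0515 to 0.077). Against C/EBPβ, C/EBPδ and C/EBPε, all 3 calls were lost with no floor (0.137, 0.121 and 0.328), with a floor at the 10th percentile (0.0748, 0.0599 and 0.146) and without the arrays numbered 1 (0.124, 0.0659 and 0.194), and that against C/EBPε also with a pseudocount in place of the floor (0.122). No difference of S100a9 was called in C/EBPβ, C/EBPδ or C/EBPε cells against vector. The call of C/EBPα against vector was lost with no floor (adjusted p = 0.126), with a floor at the 10th percentile (0.068), without the 5 arrays numbered 1 (0.0642) and in a fit of C/EBPα and vector arrays alone (0.0576).

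The S100 genes form a family of small calcium-binding proteins, and other members were brightly read. Of 12 family genes in the fit, 10 of them outside the 9 genes above, S100a3 was the only one of the 10 called in any comparison with vector. S100a3 averaged 374.7 ± 137 units in C/EBPα cells and 532.2 ± 328 in C/EBPε cells, against 1588 ± 531 in vector cells, and was lower in both (log2 -2.11 and -1.76, limma adjusted p = 0.0192 and 0.0464). The fibroblast-expressed S100a4 and S100a6 were not called in C/EBPα cells (log2 -0.27 and -0.36, limma adjusted p = 0.438 and 0.354). The median log2 difference of the 10 was -0.08 in C/EBPα cells.

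Lyz2 (chromosome 10, 117277541 to 117282272) encodes the lysozyme of myeloid cells, which cuts bacterial cell walls. Its probe set 100611_at read 2788, 2064 and 2401 units in C/EBPα cells, 786, 870 and 974.9 in C/EBPβ cells, 496, 673 and 822 in C/EBPδ cells and 788, 1051 and 466 in C/EBPε cells, against 549, 774 and 646 in vector cells. Every C/EBPα array exceeded every other array, and the C/EBPβ arrays lay just above all vector arrays. The mean was 2418 ± 362 units in C/EBPα cells and 656.3 ± 113 in vector cells, 3.69-fold (log2 1.88, SE 0.30, limma adjusted p = 0.00137). Without the 5 arrays numbered 1 the difference was 1.65 and no longer called (adjusted p = 0.065). Lyz2 was also higher in C/EBPα cells than in C/EBPβ, C/EBPδ and C/EBPε cells (log2 1.46, 1.88 and 1.72, limma adjusted p = 0.0264, 0.0024 and 0.016). The call against C/EBPβ was lost when any 1 of the C/EBPα or C/EBPβ arrays was left out (adjusted p = 0.0571 to 0.103), and that against C/EBPε without C/EBPα array 1 or 3 or C/EBPε array 3 (0.0595, 0.0716 and 0.0571). Without the arrays numbered 1 all 3 were lost (0.321, 0.102 and 0.243). The steps against vector were 0.43 in C/EBPβ, 0.00 in C/EBPδ and 0.16 in C/EBPε cells, none of them called.

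The probe sets for Lyz2 disagreed. Probe set 162309_at read 17.65 to 39.99 units on all 15 arrays, under the floor throughout. One more lysozyme probe set, which the annotation assigns to both Lyz1 and Lyz2 and which was therefore not among the 11, read 1453, 1070 and 1236 units in C/EBPα cells and was under the floor on all other arrays, at 63.2, 96.7 and 86.7 units in vector cells. It was at least 6.56-fold higher in C/EBPα cells than in vector cells (limma adjusted p = 5.45e-08). Lyz1 and Lyz2 are near-identical genes, and their transcripts cannot be told apart on this shared probe set.

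Camp, Ngp and Ltf encode proteins of the secondary granules, which form late in granulocyte maturation, and all lie on chromosome 9. Camp (109847377 to 109849456) encodes cathelicidin, an antimicrobial peptide precursor. It read 1474, 1779 and 1311 units in C/EBPα cells, 885, 967 and 801 in C/EBPβ cells, 433, 1027 and 946 in C/EBPδ cells and 1180, 1255 and 1197 in C/EBPε cells, against 631, 378 and 802 in vector cells. The C/EBPα arrays were the highest 3, and all C/EBPε arrays also lay above all vector arrays. The mean was 1521 ± 238 units in C/EBPα cells and 603.8 ± 213 in vector cells, 2.62-fold (log2 1.39, SE 0.34, limma adjusted p = 0.0216). That call was lost without vector array 2 (adjusted p = 0.0855), C/EBPα array 1 (0.0562) or C/EBPα array 2 (0.0806), and without all arrays numbered 1 (0.0879). A fit of C/EBPα and vector arrays alone lost it too (limma adjusted p = 0.0742).

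In C/EBPε cells Camp averaged 1211 ± 39.2 units, log2 1.07 above vector, and was not called (95% interval 0.34 to 1.80, limma adjusted p = 0.0719). Over the alternatives that adjusted p ran from 0.00746 with a floor at the 40th percentile to 0.166, and with 1 array left out from 0.0273 (without C/EBPδ array 1) to 0.206. The C/EBPβ and C/EBPδ differences were 0.61 and 0.38 (limma adjusted p = 0.409 and 0.977). The difference of Camp between C/EBPα and C/EBPε cells was log2 0.32 (interval -0.42 to 1.05), and no pair of C/EBP groups was called. The F-test over the 5 groups did not call Camp either (adjusted p = 0.0842).

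Ngp (110419808 to 110423012) encodes neutrophilic granule protein, a cathelicidin relative, and was near background. It read 288, 424 and 419 units in C/EBPα cells, 188, 119 and 105 in C/EBPβ cells, 133, 112 and 191 in C/EBPδ cells and 299, 190 and 287 in C/EBPε cells, against 146, 92 and 136 in vector cells. All vector and all C/EBPβ arrays were at the floor, and all C/EBPα arrays were above it. Ngp was at least 1.96-fold higher in C/EBPα cells than in vector or C/EBPβ cells (log2 0.97 on the floored scale, SE 0.18, limma adjusted p = 0.00387 and 0.0123). It was also called against C/EBPδ (log2 0.97, limma adjusted p = 0.00644) but not against C/EBPε cells (0.55, adjusted p = 0.304). In C/EBPε cells 1 array was at the floor and the difference from vector was not called (limma adjusted p = 0.188), although the arrays did not overlap. Without C/EBPε array 2, the one at the floor, that difference was called (limma adjusted p = 0.0412). The call of C/EBPα against vector was lost in a fit of C/EBPα and vector arrays alone (adjusted p = 0.0544). The call against C/EBPβ was lost without C/EBPα array 2 or 3 or C/EBPβ array 2 or 3 (0.0618, 0.0619, 0.0511 and 0.0528), with no floor (0.175), with a pseudocount in its place (0.0905) and without the arrays numbered 1 (0.0735). That against C/EBPδ was lost with no floor (0.115) and with the pseudocount (0.0586).

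Ltf (111019292 to 111042766) encodes lactoferrin, the iron-binding protein of secondary granules, and stayed near background in every group. It read 883, 698 and 190 units in C/EBPα cells, 881, 815 and 554 in C/EBPβ cells, 818, 574 and 842 in C/EBPδ cells and 1131, 535 and 207 in C/EBPε cells, against 789, 1066 and 208 in vector cells. The third arrays of the C/EBPα, C/EBPε and vector groups were the low ones, and all groups overlapped. With that spread the SE was 0.72 log2, and the C/EBPα difference of -0.19 had a 95% interval of -1.75 to 1.37. A rise or fall within that wide range could not be told from no change. Ltf was called in no comparison (F-test adjusted p = 0.94).

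Mpo (chromosome 11, 87793784 to 87804412) encodes myeloperoxidase, the enzyme of primary granules that makes hypochlorous acid. Its probe set 100415_at read 173, 728 and 526 units in C/EBPα cells, 300, 369 and 510 in C/EBPβ cells, 117, 561 and 551 in C/EBPδ cells and 837, 116 and 366 in C/EBPε cells, against 773, 629 and 760 in vector cells. The vector arrays lay close together and above all C/EBPβ and C/EBPδ arrays, and single arrays of C/EBPα, C/EBPδ and C/EBPε fell under the floor. The differences from vector were between -0.78 and -0.90 log2 with an SE of 0.59, none called (F-test adjusted p = 0.771). The other probe set read 58.0 to 129.6 units on all arrays, under the floor throughout.

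Cybb (chromosome X, 9435252 to 9487766) encodes the gp91 subunit of the phagocyte NADPH oxidase. It read 740, 650 and 722 units in C/EBPα cells, 930, 523 and 590 in C/EBPβ cells, 784, 684 and 657 in C/EBPδ cells and 626, 534 and 361 in C/EBPε cells, against 558, 707 and 788 in vector cells. All groups overlapped vector. The C/EBPα difference was 0.05 log2 (95% interval -0.56 to 0.67), and the C/EBPε difference of -0.46 (interval -1.07 to 0.16) was not called either (limma adjusted p = 0.985 and 0.398). Of the 6 other oxidase genes in the fit none was called in any comparison with vector. Of the 7 oxidase genes with a probe set, Cybb included, 4 were near background in every group. Cyba, the partner subunit of Cybb in the membrane, averaged 2684 ± 475 units in C/EBPα cells and 3434 ± 522 in vector cells (limma adjusted p = 0.162).

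Cd14 (chromosome 18, 36725064 to 36726815) encodes the endotoxin co-receptor of monocytes and macrophages, and it was read above the array median on all 15 arrays, vector included. It read 4734, 4173 and 3149 units in C/EBPα cells, 4366, 3767 and 4234 in C/EBPβ cells, 3578, 2608 and 3764 in C/EBPδ cells and 6699, 7677 and 7563 in C/EBPε cells, against 3086, 2287 and 3503 in vector cells. The C/EBPε arrays were the highest 3, and the C/EBPβ arrays also lay above all vector arrays. Cd14 averaged 7313 ± 535 units in C/EBPε cells and 2959 ± 618 in vector cells, 2.51-fold (log2 1.33, SE 0.19, limma adjusted p = 5.74e-04), rank 76 of the 611 probe sets called higher there. The smaller differences in C/EBPα, C/EBPβ and C/EBPδ cells were 0.44, 0.50 and 0.17 log2 and were not called (limma adjusted p = 0.205, 0.172 and 0.999).

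Against the other C/EBP groups, Cd14 was lower in C/EBPδ than in C/EBPε cells (log2 -1.16, limma adjusted p = 0.00254). The C/EBPα minus C/EBPε and C/EBPβ minus C/EBPε differences of -0.88 and -0.83 missed the threshold (limma adjusted p = 0.0526 and 0.0508), although the arrays did not overlap. With the replicate number as a block they passed it (0.0399 and 0.0354). Of 13 alternatives, 5 and 7 passed, with limma adjusted p from 0.021 to 0.21 and from 0.0232 to 0.256. With 1 array left out the ranges were 0.0271 to 0.198 and 0.0278 to 0.176. Of the other genes for recognising endotoxin or S100A8 and S100A9, 7 were in the fit, among them Myd88, Ager, Lbp and Tlr6, and none was called in any comparison with vector. Irak1, a kinase below the Toll-like receptors, had the lowest p of them. It averaged 4234 ± 81.9 units in C/EBPε cells and 3281 ± 623 in vector cells (limma adjusted p = 0.187). Of the 8 genes of this list with a probe set, Cd14 included, 4 were near background in every group.

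**Figure D3:**
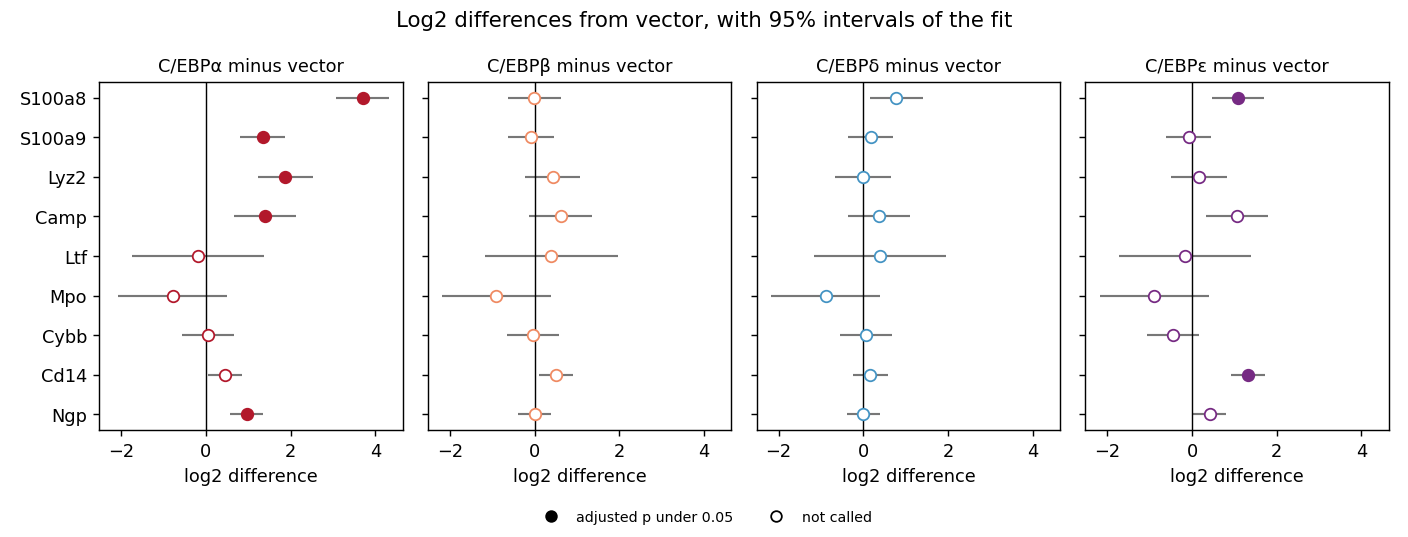
Log2 difference from vector of the 9 tested probe sets in C/EBPα, C/EBPβ, C/EBPδ and C/EBPε cells, with 95% intervals of the fit. Filled points passed the adjusted threshold of 0.05 and open points did not. The 5 filled points of C/EBPα cells lie between 0.97 and 3.70, and those of C/EBPε cells at 1.08 and 1.33. Ltf and Mpo have the widest intervals.

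Across the 5 groups, the F-test called 5 of the 9 genes, S100a8, S100a9, Lyz2, Cd14 and Ngp, beside 8.98% of all probe sets. Among the 6 pairs of C/EBP groups, C/EBPα exceeded C/EBPβ and C/EBPδ for S100a8, S100a9, Lyz2 and Ngp, 4 of 9 each, where 0.866% and 1.9% of all probe sets were higher. C/EBPα exceeded C/EBPε for 3 genes, S100a8, S100a9 and Lyz2, beside 0.437% of all. Cd14 was the 1 gene lower in C/EBPδ than in C/EBPε cells, as were 1.9% of all probe sets. No gene was called between C/EBPβ and C/EBPδ or between C/EBPβ and C/EBPε, where 2.43% and 1.29% of all probe sets were called. At an unadjusted p under 0.05, 1 gene passed in the first of these pairs and 3 in the second. The share of all probe sets under that level was not counted, so these numbers cannot be set against the array.

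The wider granule program was read through lists of genes. Of 5 further azurophil granule genes in the fit none was called in any comparison with vector. Ctsg, the primary granule protease cathepsin G, had the lowest p of them. It averaged 281.7 ± 170 units in C/EBPε cells and 118.3 ± 37.1 in vector cells (limma adjusted p = 0.175). Over all probe sets 8.13%, 4.78%, 0.18% and 9.31% were called in C/EBPα, C/EBPβ, C/EBPδ and C/EBPε cells. Of the 8 azurophil genes with a probe set, Mpo and Lyz2 included, 5 were near background in every group. No call among so few and dim genes does not show an absence of change. Of 9 further genes of the specific and gelatinase granules, 2 rose and 2 fell in C/EBPα cells, and 5 were not called. Hp, encoding haptoglobin, which is also a liver acute phase protein, averaged 38750 ± 8481 units in C/EBPα cells and 1383 ± 336 in vector cells (log2 4.81, limma adjusted p = 1.5e-08). Hp was also higher in C/EBPβ, C/EBPδ and C/EBPε cells (log2 1.44, 1.91 and 0.89, limma adjusted p = 0.00113, 9.6e-04 and 0.0147). Ptx3, a pattern-recognition pentraxin that fibroblasts also make, was higher in C/EBPα, C/EBPδ and C/EBPε cells (log2 1.49, 1.29 and 2.07, limma adjusted p = 3.58e-04, 0.0187 and 2.36e-05) and was not called in C/EBPβ cells. The gelatinase gene Mmp9 and the MHC class I light chain gene B2m fell in C/EBPα cells (log2 -1.45 and -0.80, limma adjusted p = 0.0219 and 0.0033), and B2m also in C/EBPε cells (log2 -0.68, limma adjusted p = 0.00923). The median log2 difference of these 9 was 0.08 in C/EBPα cells, beside 0 over all probe sets.

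**Figure D4:**
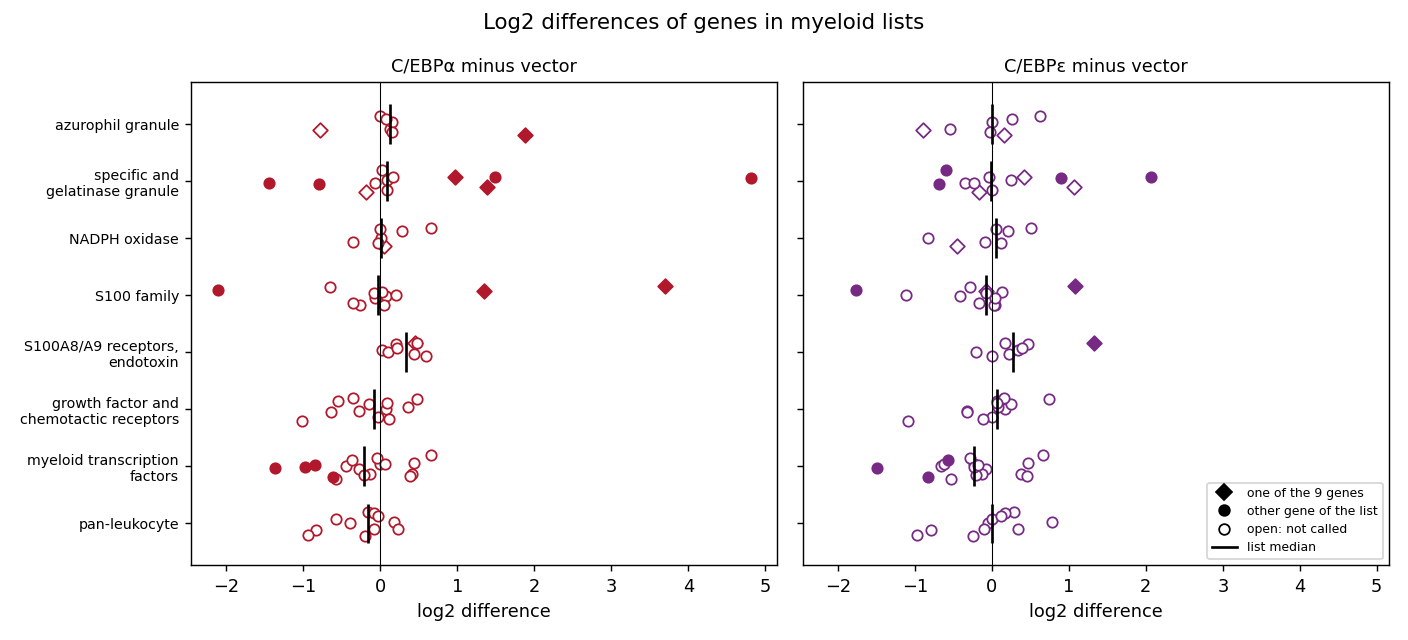
Log2 differences from vector of genes in 8 myeloid lists (rows, 1 point per gene) in C/EBPα cells (left) and C/EBPε cells (right). Diamonds are the 9 genes, circles other genes, filled where called and open where not, and vertical bars are list medians. Hp is the filled circle at 4.81 in C/EBPα cells, and every pan-leukocyte point is open.

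Markers of blood cells were read on the same arrays. Of 11 pan-leukocyte genes in the fit, such as Ptprc (CD45), Coro1a and Itgb2, none was called in any of the 4 comparisons with vector. Of the 12 with a probe set, 6 were near background in every group. The summed signal of the 12 pan-leukocyte genes with a probe set was 9988 to 11100 units per array in C/EBPα and 8842 to 12350 in C/EBPβ cells. It was 11190 to 12410 in C/EBPδ and 11280 to 12640 in C/EBPε cells, against 10860 to 12440 in vector cells. Ptprc averaged 109.3 ± 74.4 units in C/EBPα cells and 236.0 ± 189 in vector cells, and Cd53 was under the floor on all arrays. Likewise none of 4 B cell, 5 T cell, 3 erythroid and 5 mast cell and eosinophil markers was called in any of these comparisons. Of those with a probe set, 2 of 4, 3 of 5, 1 of 3 and 5 of 6 were near background in every group. So were 14 of 21 neutrophil and 11 of 18 macrophage and monocyte genes with a probe set. Among 14 other neutrophil genes, Anxa1, a phospholipid-binding protein also made by fibroblasts, rose in C/EBPα and C/EBPε cells (log2 0.97 and 0.49, limma adjusted p = 1.31e-04 and 0.0196), Mmp9 fell in C/EBPα cells, and the others, Elane, Lcn2, Mmp8 and Csf3r among them, were not called. Among 15 other macrophage and monocyte genes, Cd68, a lysosomal protein, fell to 766.4 ± 60.5 units in C/EBPα cells, 1552 ± 172 in C/EBPβ cells and 1121 ± 43.1 in C/EBPε cells, against 3103 ± 244 in vector cells (log2 -2.02, -1.0 and -1.47, limma adjusted p = 6.9e-07, 9.28e-04 and 1.72e-05). Fcgr1 was lower by the same log2 difference, -0.47, in C/EBPα and C/EBPβ cells (limma adjusted p = 0.0336 and 0.0494), and no other gene among the 15 was called against vector in any group. Of 15 fibroblast markers, 2 were called higher and 2 lower in C/EBPα cells, and 2, Vim and Lum, were near background in every group. Dcn was higher in C/EBPα, C/EBPβ and C/EBPε cells (log2 1.97, 1.63 and 3.29, limma adjusted p = 5.29e-06, 1.11e-04 and 9.81e-08), and Acta2 was lower in the same groups (log2 -1.56, -1.08 and -1.43, limma adjusted p = 1.31e-04, 0.00441 and 3.31e-04).

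None of 12 receptors for myeloid growth factors and chemoattractants was called in any comparison with vector. Of these 12, 6 were near background in every group. Csf3r, the G-CSF receptor, averaged 2852 ± 407 units in C/EBPα cells and 2717 ± 467 in vector cells. Of 17 myeloid transcription factor genes, 4 fell and none rose in C/EBPα cells, with Klf4 (log2 -1.37), Egr1 (-0.98) and Ets1 (-0.85) among them (limma adjusted p = 5.29e-06, 5.21e-04 and 0.0355). Spi1, which encodes PU.1, the factor that acts with C/EBPα in myeloid cells, averaged 984.5 ± 153 units in C/EBPα cells and 1197 ± 242 in vector cells (limma adjusted p = 0.616). Gata1 was called higher in C/EBPβ cells (log2 1.55, limma adjusted p = 0.0351). Klf4 was also lower in C/EBPβ and C/EBPε cells (log2 -0.59 and -1.49, limma adjusted p = 0.00905 and 2.37e-06). The mouse probe sets for the expressed factors were called in no comparison with vector. Cebpa averaged 724 ± 199 units in C/EBPα cells and 544.4 ± 84.4 in vector cells, Cebpb 12110 ± 3938 in C/EBPβ cells and 14200 ± 4247 in vector cells, and Cebpd 5454 ± 1008 in C/EBPδ cells and 6691 ± 1337 in vector cells. No probe set was assigned to Cebpe alone. The arrays therefore give no check of the group labels, and whether these probe sets read the human cDNAs was not tested.

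Genes with the most similar pattern were taken by the smallest root mean square difference of the 5 centred group means (log2). For S100a8 they were Lpl (160083_at, 0.247), Serpinb2, Abcd2, Tgm3 and Kng1. Lpl differed from vector by 3.42 in C/EBPα, 0.04 in C/EBPβ, 0.75 in C/EBPδ and 0.47 in C/EBPε cells. For Lyz2 the nearest was Hgf (0.178), for Camp Lpgat1 (0.0863), for S100a9 Abca1 (0.0891), for Cd14 P4hb (0.0758) and for Ngp Abi1 (0.0628). Of the 6 nearest genes, P4hb and Abi1 were called in no comparison with vector. Lpl, Lpgat1, Hgf and Abca1 were called higher in C/EBPα cells (limma adjusted p = 6.4e-06, 4.16e-05, 0.00194 and 0.00562). Lpgat1 was called higher in C/EBPε cells too (limma adjusted p = 0.00188). None of the 6 nearest genes is one of the 9.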

How the data were processed

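Total RNA of 15 zinc-treated NIH 3T3 cultures was measured on Affymetrix MG_74Av2 arrays. Each deposited value is a probe set's intensity on a linear scale, which the authors computed in Affymetrix Microarray Suite 5.0, per the labels. A trimmed mean of 2501.12 to 2501.39 on every array shows a common scaling, while array medians ran from 992.25 to 1149.7. No detection calls or counts come with the values, so near background describes a signal level and not a call of absence. With 3 arrays in each group, the number of arrays limits the precision.

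Without 66 controls, 12422 probe sets were scaled to the mean of the 15 array medians, floored at the pooled 20th percentile (189.652 units) and put on the log2 scale. Of these, 761 at the floor on all arrays were left out. All 5 groups and the other 11661 probe sets were fitted together with lmFit and eBayes with trend (R 4.3.3, limma 3.58.1). Two-sided p-values received a Benjamini-Hochberg adjustment across these probe sets, separately for each contrast. The fit was run on simulated data with independent noise on each array. That run does not cover deviations shared between arrays. An SE is that of a fitted log2 difference. A fold against an array at the floor is understated. A gene of a list was read by its brightest probe set.

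Gene names come from the platform annotation, where 10833 probe sets name 1 gene, and positions and promoters from RefSeq (GRCm38.p6). The text names the 9 genes, up to 4 called genes of a list with the largest difference (or the one with the lowest p), and the nearest patterns. S100a4, S100a6, Spi1, Csf3r, Ptprc, Cebpa and the genes listed as not called are named in addition. The genes, lists, naming rule and alternatives were chosen with earlier results of these data known. Alternatives were other scalings, floors, filters and variance settings, a replicate block, fewer groups and arrays left out.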

Additional observations from a re-analysis of the deposited data

Results flagged for a closer look

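A probe set annotated to both Lyz1 and Lyz2, outside the 11 probe sets described, gave a signal in C/EBPα cells alone. It averaged 1253 ± 192 units in C/EBPα cells (SD, n = 3), 124.0 ± 8.62 in C/EBPβ, 83.4 ± 27.9 in C/EBPδ and 118.7 ± 14.4 in C/EBPε cells, against 82.2 ± 17.2 in vector cells, whose arrays were all under the floor of 189.652 units.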

How the results depend on the processing

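Of 90 results for single genes and comparisons, 19 were called. None of those 19 changed sign under any alternative or with 1 array left out, but most did not stay called throughout. Every call of S100a9, Lyz2, Camp and Ngp was lost under some setting, as was that of S100a8 in C/EBPε cells against vector. The calls of S100a8 in C/EBPα cells, against vector and each other C/EBP group, and those of Cd14 were kept under all settings. Of the 71 not called, 7 were called under some setting. Against 5 genes called in C/EBPα cells, 3 were called with a filter at the array median or a floor at the 40th percentile, and 2 without the 5 arrays numbered 1 or with C/EBPα and vector arrays alone. The filter and the floor at the 40th percentile each remove the dim S100a9 and Ngp from the test, and the last 2 settings use fewer arrays. In C/EBPε cells 1 gene in place of 2 was called with array weights, without the arrays numbered 1 or with C/EBPε and vector arrays alone. The F-test called 3 genes with no floor and 1 without the arrays numbered 1, and the pairs of C/EBP groups gave 5 calls in place of 12 without them. Beyond that removal, the cause of these changes was not tested. With 1 array left out, the counts ran from 4 to 5 in C/EBPα, 0 to 0 in C/EBPβ and C/EBPδ, 1 to 3 in C/EBPε, 5 to 6 for the F-test and 8 to 14 for the pairs. Over the whole array, the alternatives gave 507 to 1278 calls in C/EBPα, 179 to 1010 in C/EBPβ, 0 to 40 in C/EBPδ and 471 to 1510 in C/EBPε cells, against 948, 557, 21 and 1086.

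The main fit did not pair the arrays by replicate number. Deviations of same-numbered arrays correlated at 0.148 to 0.286 for number 1 (10 of 10 pairs over 0.1), 0.00304 to 0.273 for number 2 (6 of 10) and -0.046 to 0.0661 for number 3 (0 of 10), and 13 of 15 arrays correlated best with their own number. The arrays numbered 1 thus deviated together across all 5 groups. The labels do not say what a number marks, and a shared batch was not tested beyond the fits without these arrays and with the block. With a replicate block the counts were 5 in C/EBPα, 0 in C/EBPβ and C/EBPδ, 2 in C/EBPε, 5 for the F-test and 14 for the pairs. The added pair calls were Cd14 in C/EBPα and C/EBPβ against C/EBPε cells.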
